A study of Mus musculus with 24 samples.

Results

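The comparison described here asks which responses of kidney cells to an agonist of the receptor GPR39 need an intact Gpr39 gene, which are shared with cells lacking it, and which run the opposite way. For every gene the agonist effect in knockout (KO) cells was subtracted from the agonist effect in wild-type (WT) cells, a difference called the interaction below, and all 24 libraries of the series entered it. The cells were mpkCCD, an epithelial line of the mouse cortical collecting duct, polarized over 9 days on permeable inserts without dDAVP, a vasopressin analogue, and then moved to simple medium for 24 h. The groups of 6 libraries each were WT cells with vehicle, WT cells with agonist, KO cells with vehicle and KO cells with agonist. Agonist libraries received 1 µM cpd1324 on the basolateral side for 2 h, and vehicle libraries 0.1% DMSO. ZnCl2 at 10 µM was present in all 4 groups, so every comparison is of cpd1324 on top of zinc, itself a GPR39 ligand. The labels explain WT as cells without transformation, and name neither the edited part of Gpr39 nor a number of knockout clones. They do not say that the 6 libraries of a group came from separate cultures, so the p-values measure only the spread between these samples, which may be technical.

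GPR39 is a G protein-coupled receptor that responds to zinc. It couples to Gq, which raises calcium through phospholipase C, and to G proteins that activate RhoA and its kinases, which assemble actin filaments. Filament assembly releases the coactivator MRTF to work with the transcription factor SRF, whose targets include actin itself. In principal cells of the collecting duct, vasopressin acts through the receptor Avpr2 and cyclic AMP to bring the water channel AQP2 to the apical membrane, a step that cortical actin restrains. The series title names AQP2 trafficking and cytoskeletal organization as its subject.

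Levels are given in scaled units, which are the deposited values per gene length multiplied by 1 constant, so that levels of different genes can be compared. A range of levels runs from the lowest to the highest of 6 libraries, and where a genotype has 2 ranges the first is vehicle and the second agonist. Differences and effects are on the log2(scaled units + 0.5) scale, which understates the change of genes with low levels. Each effect is followed by its moderated standard error (SE) from limma, and a gene was called at a Benjamini-Hochberg adjusted p from limma below 0.05 over 11557 tested genes. Recovered reads ranged from 29.8 to 51.9 M per library. The column totals of WT agonist libraries ran from 1085488 to 1197560 scaled units and those of the other 18 libraries from 896920 to 989598. The library KO_vehicle 6 stood apart, with a mean absolute deviation of 0.25 from its group on the log2 scale against 0.0721 to 0.124 in the others. On the third principal component KO_agonist 2, at −2.97, lay among the KO vehicle libraries, which ran from −27.2 to −2.37, while the other KO agonist libraries ran from 6.52 to 12. Of 14 principal cell markers, 11 were in the table. Their summed level was 4101 to 4602 scaled units in WT cells with vehicle, 8229 to 10819 with agonist, 4157 to 4617 in KO cells with vehicle and 3814 to 4504 with agonist. Single markers did not all follow the sum, since 3 of the 11 rose and 5 fell in WT cells with agonist (median −0.13), and 3 had a higher and 2 a lower interaction (median 0.01). Krt18, an epithelial keratin, was the largest contributor to the sum, and its interaction was 1.58 ± 0.10 (adjusted p = 3.89e-12). Markers of other cells were sparse, with 4 of 10 for intercalated cells, 1 of 8 for proximal tubule, 3 of 7 for thick limb and distal tubule, 1 of 8 for fibroblasts and 2 of 10 for endothelial and immune cells in the table. Their summed levels stayed between 66.6 and 99.8, 4.49 and 16.4, 2.82 and 11.8, 0.629 and 3.27, and 48.1 and 80.0 scaled units over all libraries. Of the 9 of these tested, Cd68 alone was called in the interaction, at 0.53 ± 0.14, a call lost with library totals set equal (0.25, adjusted p = 0.0952). Fewer cells of a type and less RNA per cell cannot be told apart in such bulk libraries.

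The targeted gene was read first. Gpr39, on chromosome 1, stood at 20.3 to 24.5 (median 20.9) in WT cells with vehicle and 27.1 to 31.1 (median 29.2) with agonist. In KO cells it stood at 8.52 to 10.4 (median 9.25) with vehicle and 8.2 to 10.6 (median 9.22) with agonist, so every KO library lay below every WT library. Between 387 and 704 Gpr39 reads remained in each KO library, and with the edited part unknown these reads leave the state of the receptor protein unmeasured. The interaction of Gpr39 with agonist was 0.43 ± 0.08 (adjusted p = 0.000191), and 0.16 (adjusted p = 0.0923) with library totals set equal.

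The largest interactions belonged to secreted signals. The 4 highest with a promoter entry were Cxcl2 and Cxcl1, chemokines that draw neutrophils, Lif, an interleukin-6 type cytokine, and the EGF receptor ligand Areg. The 250 bases before their annotated start are shown because these genes responded to the agonist in WT cells together and had no called effect in KO cells. All are plus-strand sequences of RefSeq on GRCm38.p6, matched by symbol, while the deposited table used GRCm39. Capitals mark matches, on either strand, to AP-1 (TGANTCA), the cyclic AMP response element CRE (TGACGTCA), the TATA box (TATAAA), TEAD (GGAATG), or the consensus motifs NF-kB and CArG box, searched by their degenerate letters. In the Cxcl2 and Cxcl1 promoters the capitals are 2 overlapping NF-kB matches, 1 per strand.
Cxcl2, chr5:90903649-90903898: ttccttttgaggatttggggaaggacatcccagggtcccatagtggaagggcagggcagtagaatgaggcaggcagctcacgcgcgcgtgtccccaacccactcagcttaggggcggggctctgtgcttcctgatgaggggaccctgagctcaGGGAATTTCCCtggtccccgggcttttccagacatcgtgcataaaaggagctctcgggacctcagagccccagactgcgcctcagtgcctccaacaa
Lif, chr11:4257318-4257567: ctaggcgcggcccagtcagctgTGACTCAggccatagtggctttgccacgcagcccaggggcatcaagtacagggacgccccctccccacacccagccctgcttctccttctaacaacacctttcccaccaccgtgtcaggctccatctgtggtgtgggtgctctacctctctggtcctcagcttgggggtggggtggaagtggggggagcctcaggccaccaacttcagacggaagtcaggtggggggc
Areg, chr5:91139349-91139598: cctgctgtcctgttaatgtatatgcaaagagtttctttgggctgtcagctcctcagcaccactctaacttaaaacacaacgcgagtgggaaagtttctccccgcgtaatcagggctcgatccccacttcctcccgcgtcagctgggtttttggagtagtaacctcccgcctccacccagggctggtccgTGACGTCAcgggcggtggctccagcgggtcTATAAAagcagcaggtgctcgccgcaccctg
Cxcl1, chr5:90890995-90891244: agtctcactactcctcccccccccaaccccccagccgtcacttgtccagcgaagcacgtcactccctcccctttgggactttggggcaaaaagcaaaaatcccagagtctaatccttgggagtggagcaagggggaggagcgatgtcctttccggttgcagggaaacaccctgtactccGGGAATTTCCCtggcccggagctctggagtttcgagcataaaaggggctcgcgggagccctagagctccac
The NF-kB matches began 97 bases before the start of Cxcl2 and 71 bases before that of Cxcl1. In Lif an AP-1 match (TGACTCA) began 228 bases before the start, and in Areg a CRE match began at 61 bases and a TATA box at 31. Over the 8680 of 11014 uniquely named tested genes with an entry, 4.41% held an NF-kB match in this window, 4.27% an AP-1 match, 2.89% a CRE match, 5.94% a TATA box, 10.6% a TEAD match and 1.13% a CArG box. A match describes letters and not a bound site.

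All 4 genes were low in 3 groups and high in WT cells with agonist. Cxcl2 ran at 2.04 to 5.61 (median 3.35) in WT cells with vehicle and 203 to 322 (median 275) with agonist, against 1.25 to 2.52 (median 1.75) and 0.934 to 1.74 (median 1.54) in KO cells. The WT groups were far apart and the KO groups overlapped, giving an interaction of 6.36 ± 0.25 (adjusted p = 2.25e-16). Lif ran at 17.2 to 32.2 (median 23.4) and 921 to 1336 (median 1132) in WT cells and at 18.4 to 28.5 (median 23.3) and 19.5 to 25.1 (median 22.1) in KO cells, so its vehicle levels were alike in both genotypes. Its interaction was 5.55 ± 0.17 (adjusted p = 8.72e-18). Areg ran at 15.9 to 35.4 (median 22.7) and 678 to 1045 (median 804) in WT cells and at 13.4 to 21.3 (median 16.4) and 8.96 to 15.1 (median 13.3) in KO cells. Its interaction of 5.53 ± 0.22 (adjusted p = 2.88e-16) contained a KO effect of −0.41 ± 0.16 that was not called (adjusted p = 0.0871), but was without KO_vehicle 6 and KO_agonist 2 (−0.48, adjusted p = 0.0494). For Cxcl1 the interaction was 5.40 ± 0.21 (adjusted p = 2.08e-16), with 2.64 to 5.13 (median 3.58) in KO cells with vehicle and 5.65 to 11.9 (median 8.62) in WT cells with vehicle.

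**Figure D1:**
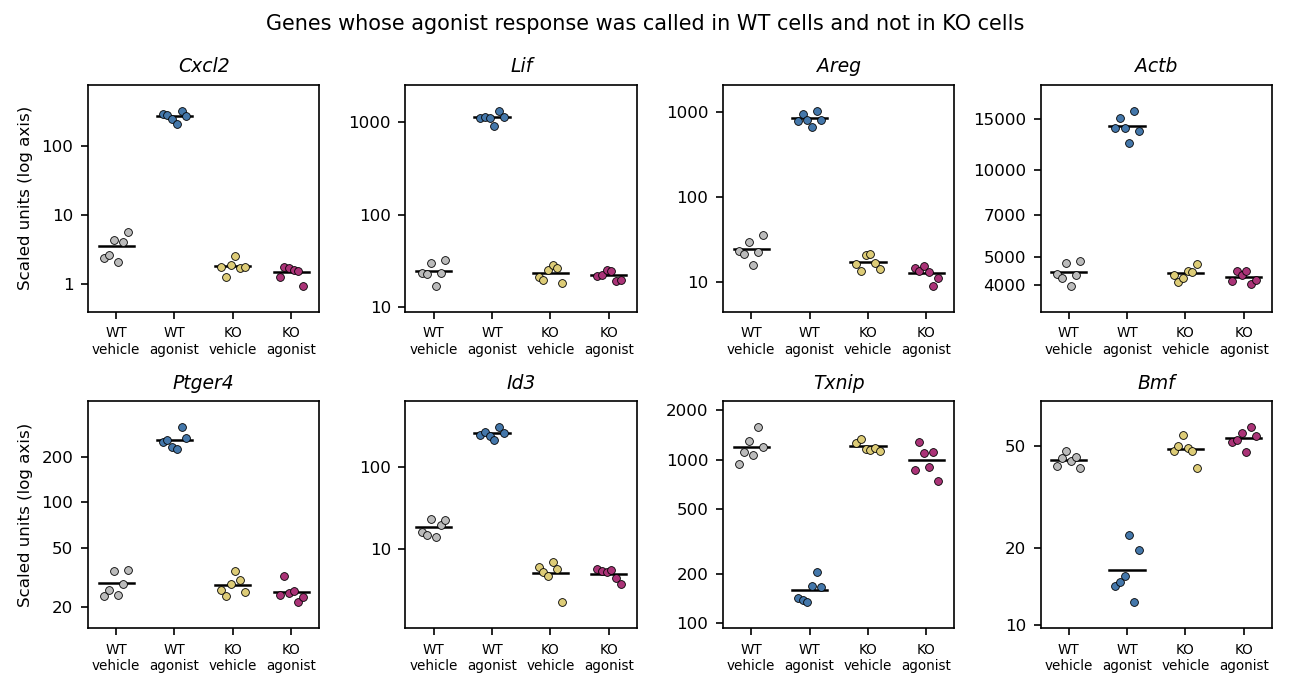
Level of 8 genes in each of the 24 libraries, in scaled units on a log axis. Points are libraries in the order of their replicate number, and bars are means of 6. In Cxcl2, Lif, Areg, Actb, Ptger4 and Id3 the WT agonist libraries stand above all others, and in Txnip and Bmf below all others, while the KO groups overlap.

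Over the whole table, most genes that responded in WT cells had no called response in KO cells, which alone does not show a difference between genotypes. The interaction was called for 4746 of 11557 genes (41.1%), 2481 of them higher (21.5%) and 2265 lower (19.6%). Beyond 1.5-fold, 901 genes were called higher (7.8%) and 492 lower (4.26%). Among the calls 52.3% were higher, but with library totals set equal 15% were, since that scaling moved the median interaction from −0.02 to −0.28, and with quantile scaling 39.1% were. The balance of the larger calls moved as well, with 535 higher and 1702 lower beyond 1.5-fold with equal totals, and 823 higher and 285 lower with a pseudocount of 2. Of the 1393 called beyond 1.5-fold on the deposited scale, 1362 were still called in the same direction, at any size, with equal totals, 1372 with quantile scaling, and 1378 without KO_vehicle 6 and KO_agonist 2.

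Each gene was placed in a class by 3 tests, the agonist effect in WT cells (6605 called, 57.2%: 3302 higher, 28.6%, and 3303 lower, 28.6%), the effect in KO cells (1075 called, 9.3%: 539 higher, 4.66%, and 536 lower, 4.64%) and the interaction. The names of the classes describe these tests only. Receptor-dependent genes had a called WT effect, a called interaction with the same sign and no called KO effect. There were 4061 of them (35.1%), 2137 higher and 1924 lower in WT cells with agonist. Their median absolute effect was 0.42 in WT cells and 0.07 in KO cells, a contrast that the definition of the class itself brings about. Reduced genes responded in both genotypes in the same direction but more in WT cells, and numbered 105 (0.909%). Opposite genes were called in both genotypes with opposite signs, and numbered 171 (1.48%), of which 126 were higher in WT cells. Shared genes were called in both genotypes in 1 direction with no called interaction, and numbered 402 (3.48%), 218 higher and 184 lower. For 352 of these the 95% interval of the interaction lay within 1.5-fold either way. KO-larger genes numbered 141 (1.22%). Their called KO effect exceeded that of WT cells in the same direction or met no called WT effect. Outside these classes stood, among others, 1865 genes (16.1%) called in WT cells but neither in KO cells nor in the interaction. For those 1865 genes a difference between genotypes was not shown. With equal totals there were 6508 receptor-dependent, 180 shared and 252 KO-larger genes, and 2893 of the 4061 receptor-dependent, 51 of the 105 reduced, 89 of the 171 opposite, 74 of the 402 shared and 17 of the 141 KO-larger genes kept their class. The 4 smaller classes also rest on the calls in KO cells, which moved with the libraries. Without KO_vehicle 6 and KO_agonist 2 there were 317 reduced, 442 opposite, 1019 shared and 383 KO-larger genes, and without KO_agonist 1 alone there were 17, 43, 114 and 44.

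**Figure D2:**
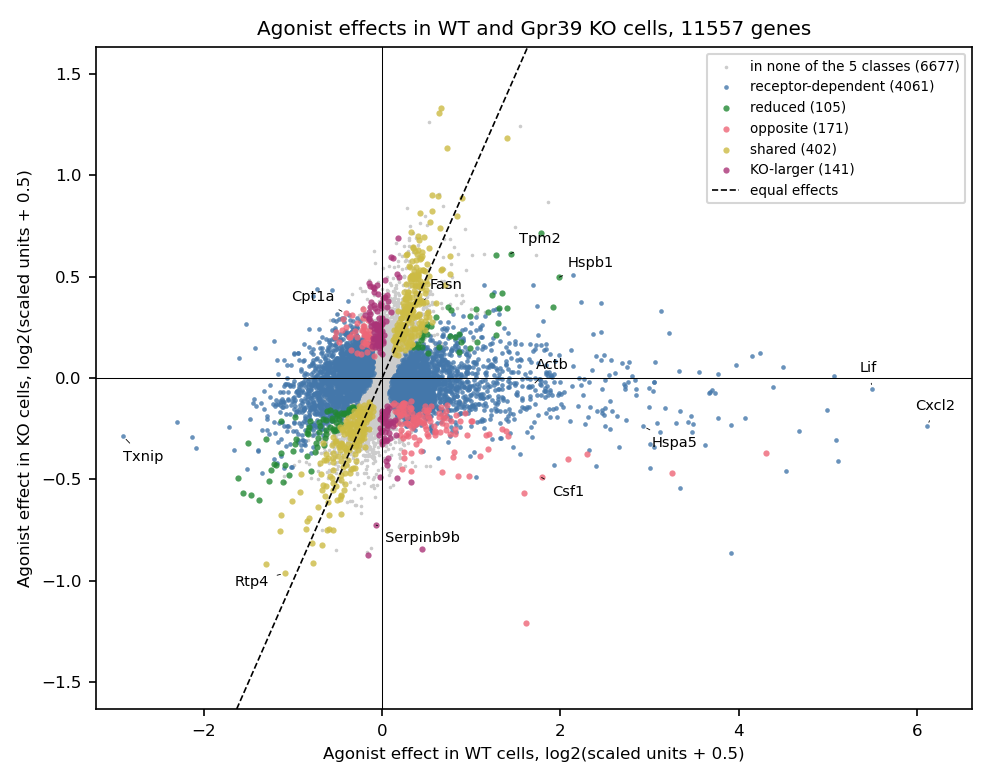
Agonist effect in KO cells against agonist effect in WT cells for 11557 tested genes, both on the log2(scaled units + 0.5) scale, coloured by class, with the vertical axis covering a narrower range. The dashed line marks equal effects. Most coloured points lie along the horizontal axis, and shared genes lie along the dashed line.

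Large rises in WT cells had almost no counterpart in KO cells, and large falls had a small one. All 107 genes that rose at least 4-fold in WT cells were called in the interaction, and 0 of them rose in KO cells while 4 fell there. Their median effect was 2.77 in WT cells and −0.08 in KO cells. Of 309 genes that rose 2-fold to 4-fold, 298 were called in the interaction, with 15 called higher and 11 lower in KO cells. Of 107 genes that fell at least 2-fold in WT cells, 99 were called in the interaction and 20 also fell in KO cells. The median effect of these falling genes was −1.15 in WT cells and −0.22 in KO cells. The sign was the same in both genotypes for 97 of them. It was the same for 30 of the 107 that rose at least 4-fold, 140 of the 309 that rose 2-fold to 4-fold, and 6631 of all 11557. Across genes the effects in WT and KO cells correlated weakly (Pearson 0.162, Spearman 0.220 over 11557 genes of the same libraries, which are not independent replicates).

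Most genes with a larger interaction started from like levels in both genotypes. Of the 901 genes called at least 1.5-fold higher, 765 (84.9%) had a mean vehicle level in KO cells within 1.5-fold of that in WT cells. In 34 of them (3.77%) KO cells with vehicle already stood at or beyond the mean of WT cells with agonist, and 31 were below 1 scaled unit in KO cells with vehicle. Of the 492 lower ones 418 (85%) were within 1.5-fold, and 39 (7.93%) were at or beyond the WT agonist mean. These shares were not computed over all tested genes, so they do not set genes with a larger interaction apart from the rest. Depp1, a gene induced by FOXO factors, is an example. It ran at 78.2 to 139.7 (median 108) in WT cells with vehicle and 18.1 to 62.7 (median 31.9) with agonist, but at 16.8 to 32.3 (median 24.8) in KO cells with vehicle and 22.8 to 35.9 (median 28.4) with agonist. Its interaction was −1.80 ± 0.33 (adjusted p = 7.86e-05), from a KO start that was already at the WT agonist level.

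Immediate-early genes, feedback genes of the ERK pathway and inflammatory genes gave the largest interactions as groups. Of 25 immediate-early transcription factors and partners tested, 24 had a higher interaction and 0 a lower one, with a median of 2.35 against −0.02 over all tested genes. Of 27 ERK feedback genes and EGF receptor ligands 22 were higher and 1 lower (median 1.85). Of 24 chemokines and NF-kB pathway genes 19 were higher and 2 lower (median 1.33). Over all tested genes 21.5% were called higher and 19.6% lower. Median effects of the 3 lists in KO cells were −0.11, −0.05 and −0.10.

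Fosb, an AP-1 subunit, ran at 27.1 to 43.8 (median 32.6) in WT cells with vehicle and 734 to 1071 (median 879) with agonist, and at 21.3 to 36.0 (median 27.2) and 19.2 to 29.2 (median 22.7) in KO cells. The KO groups overlapped and the interaction was 4.94 ± 0.18 (adjusted p = 1.44e-16). Without KO_vehicle 6 and KO_agonist 2 Fosb was called lower in KO cells (−0.40, adjusted p = 0.0296). Ier3, an immediate-early regulator of cell survival, had an interaction of 2.35 ± 0.12. Dusp5, a phosphatase that switches off ERK in the nucleus, rose from 68.9 to 122 (median 81.0) to 1534 to 2230.5 (median 1792) in WT cells. In KO cells it ran at 81.0 to 125 (median 98.5) and 73.2 to 132 (median 99.1), and its interaction was 4.43 ± 0.20 (adjusted p = 4.47e-15). Errfi1, an inhibitor of EGF receptor family kinases, had an interaction of 2.77 ± 0.11, and Ereg, an EGF receptor ligand, 4.27 ± 0.16. Tnfaip3, a ubiquitin-editing enzyme that restrains NF-kB, had the smallest adjusted p of the inflammatory list. It ran at 12.0 to 15.5 (median 13.3) and 333 to 557 (median 456) in WT cells and at 9.72 to 14.0 (median 11.5) and 9.59 to 11.6 (median 10.3) in KO cells, with an interaction of 5.15 ± 0.14 (adjusted p = 4.94e-19). Adm, the vasodilator peptide adrenomedullin, had a lower start in KO cells, 3.84 to 8.2 (median 6.52) against 9.03 to 15.5 (median 12.9), and an interaction of 4.15 ± 0.22.

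**Figure D3:**
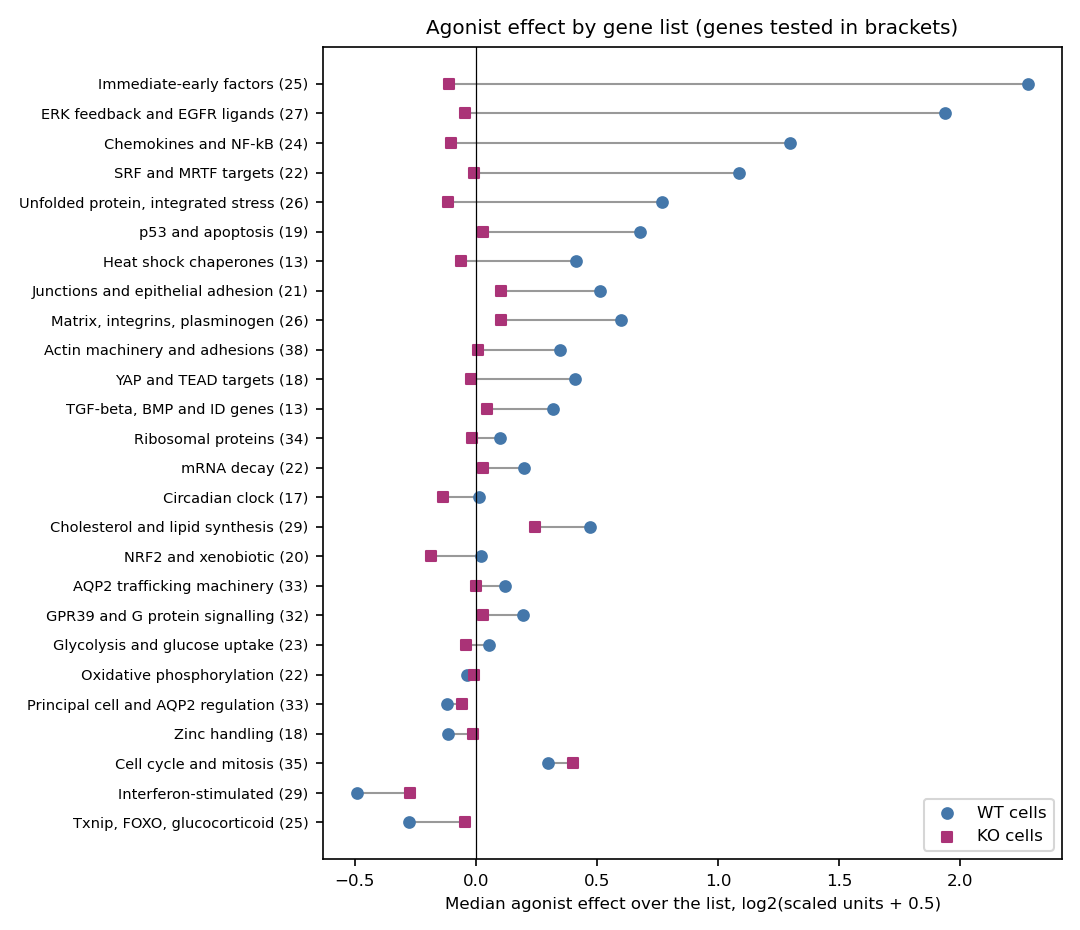
Median agonist effect of 26 gene lists in WT cells (circles) and KO cells (squares), on the log2(scaled units + 0.5) scale, ordered by median interaction, with the number of genes tested in brackets. The circles run from −0.49 to 2.28, while the squares run from −0.27 to 0.40, with cell cycle, cholesterol and interferon lists furthest from 0 in KO cells.

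Of 38 genes of the actin machinery and adhesions 32 rose and 1 fell in WT cells, or 16 and 5 with equal totals, and 3 rose in KO cells (1 without KO_agonist 1). Over all tested genes 28.6% were called higher in WT cells and 4.66% in KO cells. Of 22 SRF and MRTF targets 20 had a higher interaction and 0 a lower one (median 0.90). The interaction was called higher for 21.5% and lower for 19.6% of all tested genes. Of the 38 actin genes 23 were higher and 0 lower (median 0.36), though with library totals set equal 12 were higher and 8 lower (median 0.08). Actb, beta-actin, stood at 12398 to 16039 (median 13984) in WT cells with agonist, above every library of the other 3 groups, which ran from 3980 to 4844 scaled units. Its interaction was 1.72 ± 0.08 (adjusted p = 1.15e-14). Srf ran at 86.2 to 108 (median 94.4) and 349.6 to 447 (median 388) in WT cells and at 82.7 to 117 (median 93.6) and 79.8 to 101 (median 86.5) in KO cells, with an interaction of 2.18 ± 0.11 (adjusted p = 3.57e-14). Zyx, encoding the adhesion protein zyxin, ran at 123 to 138 (median 131) and 431 to 605 (median 519) in WT cells and at 118 to 137 (median 127) and 107 to 129.6 (median 122) in KO cells. The interaction of Zyx was 2.05 ± 0.09, that of vinculin (Vcl) 1.66 ± 0.11 and that of Actr3, a subunit of the filament-branching Arp2/3 complex, 1.19 ± 0.08.

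Lists of YAP and TEAD, TGF-beta, junction and matrix genes held more higher than lower interactions on the deposited scale. Of 18 YAP and TEAD targets 10 had a higher interaction and 2 a lower one (median 0.32, and 0.05 with equal totals). Over all tested genes 21.5% were called higher and 19.6% lower. Ccn1, a secreted matricellular protein, ran at 452 to 603 (median 479) and 5458 to 7527 (median 6189) in WT cells and at 714 to 1003 (median 859) and 607 to 1063 (median 828) in KO cells, giving an interaction of 3.74 ± 0.15 (adjusted p = 4.77e-16). Ankrd1 had an interaction of 3.76 ± 0.15, from a KO vehicle level of 235 to 328 (median 259) that lay above the 71.8 to 105 (median 78.6) of WT cells. Of 13 TGF-beta, BMP and ID genes 8 were higher and 3 lower (median 0.28, and 0.01 with equal totals). Id3, an inhibitor of helix-loop-helix factors, ran at 14.0 to 23.1 (median 17.9) and 213 to 301 (median 249) in WT cells but at 2.27 to 6.95 (median 5.53) and 3.79 to 5.75 (median 5.34) in KO cells, with an interaction of 3.74 ± 0.24 (adjusted p = 3.02e-12). Of 21 junction and epithelial adhesion genes 13 were higher and 1 lower (median 0.47, but 0.19 with equal totals, and 9 and 4 with a median of 0.08 with quantile scaling), with 2.74 ± 0.17 for the claudin Cldn1 and 0.88 ± 0.08 for Cdh1, which encodes E-cadherin. Of 26 matrix, integrin and plasminogen genes 15 were higher and 2 lower (median 0.36), or 12 and 6 with equal totals (median 0.09) and 12 and 5 with quantile scaling (median 0.17). Among them the matrix protein Thbs1 had an interaction of 2.94 ± 0.11, the matrix protease Adamts1 3.52 ± 0.16 and the integrin subunit Itgav 1.56 ± 0.10.

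Genes of the receptor's own signalling were called about as often as all tested genes (40.6% against 41.1%). Of 32 genes of GPR39, Gq and RhoA-activating G protein signalling 10 had a higher interaction and 3 a lower one (median 0.12), a balance that turned to 3 higher and 12 lower (median −0.15) with library totals set equal. Gnaq, the alpha subunit of Gq, had an interaction of 0.33 ± 0.09 that fell to 0.06 (adjusted p = 0.603) with equal totals, and its sister subunit Gna11 one of −0.26 ± 0.05. Rock1, a kinase that RhoA activates, had an interaction of 0.50 ± 0.09. Rcan1, a calcineurin inhibitor induced by calcium signals, ran at 242 to 429 (median 307) and 668 to 906 (median 794) in WT cells and at 299 to 447 (median 350.4) and 234 to 411 (median 278) in KO cells. Its interaction was 1.64 ± 0.21 (adjusted p = 5.99e-07), and without KO_vehicle 6 and KO_agonist 2 it was also called lower in KO cells (−0.44, adjusted p = 0.0411). In this list 2 of 32 genes rose in KO cells, against 4.66% of all tested genes. Without KO_vehicle 6 and KO_agonist 2, 8 rose, while calls in KO cells over all tested genes went from 1075 to 2623. Itpr3, an IP3-gated calcium channel, was shared, with an effect of 0.43 ± 0.09 in WT cells and 0.59 ± 0.09 in KO cells and an interaction of −0.16 ± 0.13 (95% interval −0.42 to 0.10). With equal totals its interaction was called, at −0.44. Plcb3, a phospholipase C that Gq activates, was KO-larger, with 0.02 ± 0.04 in WT cells and 0.21 ± 0.04 in KO cells (interaction −0.19 ± 0.05, adjusted p = 0.0045). With equal totals and with quantile scaling it was called lower in WT cells (−0.22 and −0.21) and so had opposite effects.

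Principal cell genes were called about as often as all tested genes (42.4% against 41.1%), and Aqp2 itself showed no called interaction. Of 33 genes of principal cells and AQP2 regulation 5 had a higher interaction and 9 a lower one (median −0.08), which became 4 and 20 (median −0.33) with equal totals. Aqp2 ran at 11.9 to 22.6 (median 18.7) in WT cells with vehicle and 9.16 to 13.5 (median 11.7) with agonist, so these groups overlapped. In KO cells it ran at 59.9 to 107 (median 92.2) and 49.4 to 90.8 (median 62.5), above every WT library. By limma the WT fall of Aqp2 was called (−0.54 ± 0.17, adjusted p = 0.00865), despite the overlap. Its KO effect was not called (−0.40 ± 0.17, adjusted p = 0.129). The interaction was −0.15 ± 0.24 (95% interval −0.64 to 0.35; adjusted p = 0.667), which leaves room for a larger WT fall of up to 0.64 and a larger KO fall of up to 0.35. Without KO_agonist 2 the fall of Aqp2 was called in KO cells too (−0.49, adjusted p = 0.0499), with an interaction of −0.05.

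Several regulators of sodium and water transport did differ. Avpr2, the vasopressin receptor, ran at 82.3 to 126 (median 103) and 42.1 to 64.0 (median 56.5) in WT cells and at 79.6 to 138 (median 129.7) and 80.9 to 131 (median 95.8) in KO cells. The interaction of −0.64 ± 0.18 (adjusted p = 0.006) stayed called without KO_vehicle 6 or KO_agonist 2, but the KO fall was then called as well (−0.43, adjusted p = 0.0178, and −0.39, adjusted p = 0.0361). Scnn1g, the gamma subunit of the epithelial sodium channel, ran at 27.0 to 40.3 (median 34.0) and 6.25 to 19.8 (median 13.0) in WT cells and at 28.0 to 42.8 (median 35.7) and 20.3 to 37.1 (median 23.9) in KO cells, with an interaction of −0.88 ± 0.26 (adjusted p = 0.00892). Its KO fall was called without KO_agonist 2 (−0.58, adjusted p = 0.0352) or WT_agonist 3 (−0.47, adjusted p = 0.0386). Scnn1a, the alpha subunit, had an interaction of 0.01 ± 0.09 that was not called, and of −0.26 and −0.30, called, with equal totals and with quantile scaling. Sgk1, a kinase that keeps the channel at the membrane, fell in WT cells from 213 to 343 (median 257) to 88.3 to 134 (median 109). KO cells with vehicle, at 95.1 to 129.9 (median 108), already stood at that level, and ran at 77.8 to 117 (median 89.8) with agonist. Its interaction was −0.99 ± 0.16 (adjusted p = 1.91e-05), and without KO_agonist 2 the KO fall was called (−0.35, adjusted p = 0.0370). Tsc22d3, a glucocorticoid-induced leucine zipper protein, had an interaction of −0.86 ± 0.14.

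The higher interactions of that list were of cyclic AMP signalling genes. Ptger4, a prostaglandin E2 receptor that raises cyclic AMP, ran at 23.7 to 35.3 (median 27.2) and 228 to 318 (median 257) in WT cells and at 23.6 to 34.7 (median 27.4) and 21.6 to 32.4 (median 24.4) in KO cells. Its interaction was 3.32 ± 0.16 (adjusted p = 8.31e-15). Pde4b, which breaks cyclic AMP down, had an interaction of 1.98 ± 0.20, and Akap12, which anchors protein kinase A, 1.76 ± 0.12. Of 33 genes of the AQP2 trafficking machinery 14 had a higher interaction and 3 a lower one (median 0.12), but 10 and 11 with quantile scaling (median −0.06) and 9 and 16 with equal totals (median −0.16). The interaction was called for 51.5% of this list, against 41.1% of all tested genes. Among its members Cav1, the caveolar coat protein, had an interaction of 1.23 ± 0.11.

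**Figure D4:**
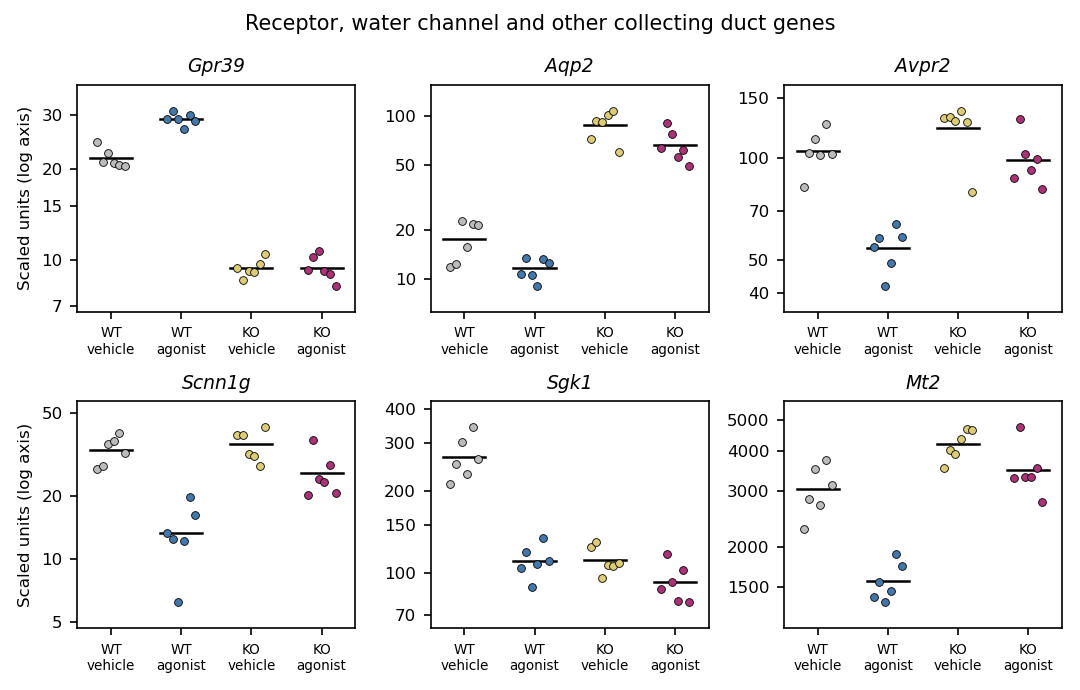
Level of Gpr39, Aqp2, Avpr2, Scnn1g, Sgk1 and Mt2 in each of the 24 libraries, in scaled units on a log axis; points are libraries and bars are means of 6. Gpr39 was lower and Aqp2 higher in all KO libraries than in any WT library, and Sgk1 in KO cells with vehicle overlapped WT cells with agonist.

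Zinc handling genes were called about as often as all tested genes (44.4% against 41.1%). Of 18 tested, 3 had a higher interaction and 5 a lower one (median −0.09), and 1 and 11 with equal totals (median −0.36). Mt2, a metallothionein that binds zinc, ran at 2275 to 3746 (median 2990.3) and 1349 to 1904 (median 1509) in WT cells and at 3553 to 4684 (median 4186) and 2772 to 4751 (median 3319.5) in KO cells. The interaction was −0.67 ± 0.17 (adjusted p = 0.00222), and the KO fall was called without KO_agonist 2 (−0.37, adjusted p = 0.0280). Slc30a1, the plasma membrane zinc exporter, had an interaction of −0.46 ± 0.12, and its KO fall was called without KO_vehicle 6 and KO_agonist 2 (−0.25, adjusted p = 0.0346).

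Txnip had the lowest interaction of all tested genes, and genes tied to FOXO factors or glucocorticoids were more often lower than higher. Of 25 genes in that list 13 had a lower interaction and 7 a higher one (median −0.33). Over all tested genes 19.6% were called lower and 21.5% higher. Interactions in the list ran from −2.62 to 1.89, and the genes described in this paragraph were all lower. Txnip, which binds thioredoxin and restrains glucose uptake, ran at 939 to 1577 (median 1153) and 134 to 203 (median 154) in WT cells and at 1129 to 1339 (median 1170.0) and 738 to 1286 (median 1000.5) in KO cells. WT agonist libraries lay below all others, and the interaction was −2.62 ± 0.17 (adjusted p = 4.93e-12). Without KO_agonist 2 Txnip was also called lower in KO cells (−0.36, adjusted p = 0.0418), far less than in WT cells. Ackr3, a chemokine-scavenging receptor, had the lowest interaction of the chemokine and NF-kB list, −1.84 ± 0.21. It ran at 22.7 to 36.1 (median 28.4) and 3.74 to 8.54 (median 6.47) in WT cells. In KO cells it ran at 39.2 to 61.4 (median 43.3) and 32.2 to 45.5 (median 35.0). Bmf, a pro-apoptotic BCL2 family member, ran at 41.0 to 47.7 (median 44.4) and 12.3 to 22.4 (median 15.1) in WT cells but at 40.9 to 55.0 (median 48.5) and 47.1 to 59.1 (median 53.6) in KO cells, with an interaction of −1.57 ± 0.14 (adjusted p = 1.11e-09). Arrdc3, an arrestin domain protein, had an interaction of −1.48 ± 0.18 and Dtx4, a ubiquitin ligase linked to Notch, −1.40 ± 0.10.

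Endoplasmic reticulum stress genes rose in WT cells, and several fell in KO cells. Each of the 26 tested genes of the unfolded protein and integrated stress responses had a higher interaction (median 0.85). Over all tested genes 21.5% were called higher in the interaction. With library totals set equal, and with quantile scaling, 23 of 26 were called higher and 0 lower. In KO cells 7 of the 26 fell and 0 rose, against 4.64% of all tested genes called lower there. Without KO_vehicle 6 and KO_agonist 2, 13 fell, without KO_vehicle 6 alone 11, and without KO_agonist 1 only 4. Calls in KO cells over all tested genes, in either direction, were 2623, 1581 and 284 in these settings, against 1075 with all libraries. Hspa5, the main chaperone of the endoplasmic reticulum, ran at 489 to 593 (median 541) and 3285 to 5271 (median 4002) in WT cells and at 473 to 698 (median 655) and 495 to 579 (median 525) in KO cells, with an interaction of 3.16 ± 0.13 (adjusted p = 9.77e-16). Its KO effect was −0.24 ± 0.09 (adjusted p = 0.105), called without KO_vehicle 6 (−0.32, adjusted p = 0.0203). Ppp1r15a, which reverses the stress-induced block of translation, rose from 101 to 124 (median 114) to 471 to 675 (median 564) in WT cells and fell from 155 to 204 (median 179) to 115 to 159 (median 139) in KO cells. The KO effect was −0.37 ± 0.08 (adjusted p = 0.00981) and the interaction 2.67 ± 0.11. Manf, a secreted stress factor, had an interaction of 1.45 ± 0.09. Of 13 heat shock chaperones 11 had a higher interaction and 0 a lower one (median 0.49), or 8 and 1 with equal totals (median 0.22) and 8 and 0 with quantile scaling (median 0.23), and 3 of them fell in KO cells (0 without KO_agonist 1).

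Genes with opposite effects in the 2 genotypes included stress, cytokine, lipid and clock genes. Atf4, the central transcription factor of the integrated stress response, and Herpud1, a membrane protein of endoplasmic reticulum degradation, were picked here after their values were seen. Atf4 rose from 766 to 1002 (median 876) to 1482 to 1968 (median 1657) in WT cells and fell from 911 to 1014 (median 949) to 719 to 919 (median 785) in KO cells (interaction 1.23 ± 0.10). Herpud1 had 1.19 ± 0.08 in WT cells, −0.35 ± 0.08 in KO cells and an interaction of 1.54 ± 0.11. Csf1, the growth factor of macrophages, rose from 32.7 to 42.2 (median 36.7) to 95.4 to 161 (median 130.1) in WT cells and fell from 39.5 to 56.9 (median 48.0) to 30.1 to 41.9 (median 31.9) in KO cells. Its KO effect was −0.49 ± 0.11 (adjusted p = 0.0112) and its interaction 2.28 ± 0.15 (adjusted p = 4.26e-12). Ciart, a repressor in the circadian clock, had 0.44 ± 0.06 in WT cells and −0.36 ± 0.06 in KO cells, where it started higher, at 20.1 to 26.7 (median 23.3) against 12.7 to 14.5 (median 13.9). The reverse pattern was seen in Cpt1a, the enzyme that admits long-chain fatty acids to mitochondria. Cpt1a fell from 109 to 123 (median 116) to 73.4 to 98.9 (median 86.9) in WT cells and rose from 93.1 to 114 (median 103) to 113 to 137 (median 132) in KO cells, with an interaction of −0.73 ± 0.09 (adjusted p = 1.85e-07). Rnf169, a protein of the DNA damage response, had −0.28 ± 0.07 and 0.27 ± 0.07 (interaction −0.55 ± 0.10). The KO groups of Ppp1r15a, Atf4, Csf1 and Cpt1a overlapped at their edges, while their WT groups did not overlap. Each of the 7 genes with opposite effects (Atf4, Herpud1, Ppp1r15a, Csf1, Ciart, Cpt1a and Rnf169) kept this class under all 35 alternatives tried, but such stability was part of the reason for describing these and not other opposite genes.

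**Figure D5:**
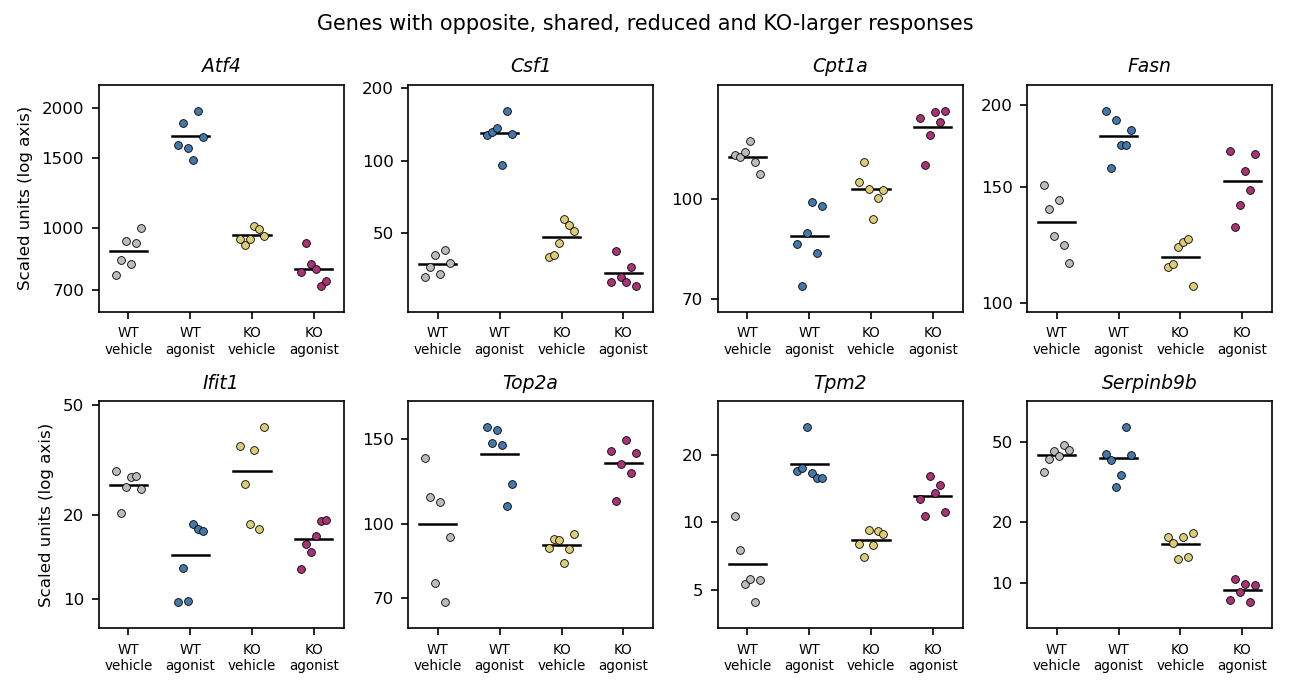
Level in each of the 24 libraries, in scaled units on a log axis, of Atf4, Csf1 and Cpt1a (opposite effects), Fasn, Ifit1 and Top2a (shared), Tpm2 (reduced) and Serpinb9b (KO-larger); points are libraries and bars are means of 6. Atf4 and Csf1 go up in WT cells and down in KO cells, and Fasn goes up in both.

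Shared responses were most numerous in the cell cycle (17), interferon (9) and cholesterol (7) lists. Over all tested genes 3.48% were shared, and 28.6% were called lower in WT cells and 4.64% in KO cells. The interaction was called for 24.1% of the interferon list, against 41.1% of all tested genes. Of 29 interferon-stimulated genes 23 fell in WT cells and 11 in KO cells, 9 were shared, and 2 had a higher and 5 a lower interaction (median −0.14). With equal totals 1 was higher and 13 lower, and 9 were shared. Without KO_agonist 1, 1 gene was called lower in KO cells and 1 was shared, while the median KO effect of the list was −0.27 with and without that library. Calls in KO cells over all tested genes dropped from 1075 to 284 without KO_agonist 1, and to 429, 481 and 441 without KO_agonist 4, 5 or 6. Rtp4, an interferon-induced receptor chaperone, ran at 9.56 to 21.3 (median 13.1) and 4.86 to 9.39 (median 6.04) in WT cells and at 13.1 to 28.7 (median 16.9) and 7.28 to 12.4 (median 8.81) in KO cells, with an interaction of −0.13 ± 0.28 (95% interval −0.72 to 0.45). This interval still admits a difference of more than 1.5-fold. Ifit1, an antiviral RNA-binding protein, ran at 20.4 to 28.8 (median 26.3) and 9.71 to 18.6 (median 15.2) in WT cells and at 17.8 to 41.4 (median 30.2) and 12.8 to 19.1 (median 16.3) in KO cells (interaction −0.11 ± 0.26, 95% interval −0.66 to 0.43). Ifit3b had an interaction of −0.39 ± 0.33, and without KO_agonist 1 the KO falls of Ifit1 and Ifit3b lost their calls (adjusted p = 0.0575 and 0.0526). Oasl1 was an exception, called higher in WT cells and not called in KO cells, with an interaction of 1.11 ± 0.18 (adjusted p = 1.82e-05). It ran at 6.42 to 8.19 (median 7.14) and 12.9 to 19.8 (median 14.5) in WT cells and at 15.9 to 29.0 (median 22.6) and 16.1 to 24.2 (median 21.2) in KO cells, so that the median of KO cells with vehicle was already above that of WT cells with agonist.

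Cell cycle genes rose in both genotypes on the deposited scale. Over all tested genes 28.6% were called higher in WT cells and 4.66% in KO cells, and 3.48% were shared. The interaction was called for 5.71% of the list, against 41.1% of all tested genes. Of 35 tested, 23 rose in WT cells and 20 in KO cells, 17 were shared, and 1 had a higher and 1 a lower interaction (median −0.10). Without KO_agonist 1, 7 rose in KO cells and 6 were shared, and without WT_agonist 3, 15 rose in WT cells and 10 were shared. The median effects moved less than the calls, from 0.40 to 0.38 in KO cells without KO_agonist 1 and from 0.30 to 0.27 in WT cells without WT_agonist 3. The counts also depended on the scaling. With equal totals 1 rose and 8 fell in WT cells, 0 were shared and 18 had a lower interaction, and with quantile scaling 6 were shared and 7 had a lower interaction. Top2a, the topoisomerase of dividing cells, picked after its values were seen, ran at 68.8 to 137 (median 103) and 109 to 159 (median 147) in WT cells and at 82.9 to 95.5 (median 90.9) and 112 to 149 (median 137) in KO cells. Its interaction was −0.05 ± 0.17 (95% interval −0.41 to 0.31), and its WT rise was not called with equal totals (0.27, adjusted p = 0.0770).

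Cholesterol and lipid synthesis genes rose in both genotypes and more in WT cells for some. Over all tested genes 28.6% were called higher in WT cells and 4.66% in KO cells, and 3.48% were shared. The interaction was called for 58.6% of the list, against 41.1% of all tested genes. Of 29 tested, 23 rose in WT cells and 13 in KO cells, 7 were shared and 3 reduced, and 13 had a higher and 4 a lower interaction (median 0.13), or 7 and 7 with equal totals (median −0.14) and 9 and 6 with quantile scaling (median −0.04). Without KO_agonist 1, 2 rose in KO cells and 2 were shared, and without KO_agonist 2, 20 rose. The median KO effect was 0.245 with all libraries, 0.213 without KO_agonist 1 and 0.285 without KO_agonist 2. Fasn, fatty acid synthase, picked after its values were seen, ran at 115 to 151 (median 133) and 160.0 to 196 (median 179) in WT cells and at 106 to 125 (median 118) and 130.4 to 170.3 (median 154) in KO cells. Its interaction was 0.06 ± 0.10 with a 95% interval of −0.14 to 0.26, inside 1.5-fold either way. Hsd17b7, an enzyme of cholesterol synthesis, had an interaction of 1.07 ± 0.10 and a KO effect of 0.06 ± 0.07.

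Other reduced genes came from several pathways. Hspb1, a small heat shock protein that binds actin filaments, ran at 79.8 to 108 (median 96.1) and 320.2 to 409 (median 378) in WT cells and at 58.6 to 72.1 (median 61.9) and 57.2 to 109 (median 95.7) in KO cells. Its effect was 1.99 ± 0.11 in WT cells and 0.50 ± 0.11 in KO cells, and the interaction 1.49 ± 0.16 (adjusted p = 3.49e-08). Tpm2, a tropomyosin that lines actin filaments, ran at 4.42 to 10.6 (median 5.59) and 15.8 to 26.5 (median 16.8) in WT cells and at 7.03 to 9.2 (median 8.43) and 10.7 to 16.1 (median 13.1) in KO cells, with an interaction of 0.83 ± 0.21 (adjusted p = 0.00286). Cbr3, a carbonyl reductase, fell in both, with −1.56 ± 0.11 in WT cells and −0.57 ± 0.11 in KO cells (adjusted p of the interaction 1.88e-05). Among KO-larger genes Serpinb9b, a serine protease inhibitor, ran at 35.3 to 48.1 (median 43.9) and 29.7 to 59.0 (median 41.9) in WT cells and at 13.2 to 17.6 (median 16.3) and 8.04 to 10.5 (median 9.39) in KO cells, so that the KO groups did not overlap. Its interaction was 0.66 ± 0.16 (adjusted p = 0.00199). Lpin1, a phosphatidate phosphatase of fat synthesis, had −0.14 ± 0.08 in WT cells and 0.45 ± 0.08 in KO cells (interaction −0.59 ± 0.11), and was called lower in WT cells with equal totals (−0.37).

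The remaining lists held smaller or divided interactions. Over all tested genes the interaction was called for 41.1%, 21.5% higher and 19.6% lower. It was called for 68.4% of the p53, 65% of the NRF2, 64.7% of the clock and 59.1% of the mRNA decay list. The shares were below that of all tested genes for glycolysis (30.4%), ribosomal proteins (23.5%) and oxidative phosphorylation (0%). Of 19 p53 and apoptosis genes 10 were higher and 3 lower (median 0.64; 8 lower with equal totals), with 1.70 ± 0.09 for Cdkn1a, which halts the cell cycle, and 3.52 ± 0.17 for Pmaip1, which promotes apoptosis. Of 20 NRF2 and xenobiotic genes 9 were higher and 4 lower (median 0.12, but −0.16 with equal totals and −0.06 with quantile scaling). Among them the selenoprotein Txnrd1 had an interaction of 1.41 ± 0.10. In KO cells 8 of the 20 fell and 0 rose, against 4.64% of all tested genes called lower there. Without KO_agonist 1, 5 fell. In this list 4 genes were shared, or 1 with equal totals. Of 17 clock genes 6 were higher and 5 lower (median 0.14, but −0.14 with equal totals), with Bhlhe40 at 1.37 ± 0.10. Of 22 mRNA decay genes 10 were higher and 3 lower (7 and 7 with equal totals), with the ribonuclease Zc3h12a at 2.62 ± 0.13. Of 23 glycolysis and glucose uptake genes 6 were higher and 1 lower, but 8 were lower with equal totals and 11 with quantile scaling. Oxidative phosphorylation genes showed 0 called of 22 by limma, with 0 also by voom, but 20 lower with equal totals. Of 34 ribosomal protein genes 8 were higher (23.5%, near the 21.5% of all tested genes) and 0 lower (median 0.16). This direction reversed to 9 lower with equal totals (median −0.12) and 27 lower with quantile scaling (median −0.26).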

How the data were processed

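Poly(A)-selected RNA of 24 libraries (4 groups of 6) was measured by sequencing. The assembly GRCm39, STAR 2.7.8a, DESeq and DESeq2 are listed, with no role given, per the submitters' processing notes. The authors deposited 1 table of 12224 rows holding a signal per library that had been divided by gene length. Each signal times its length was a multiple of 0.1, and a factor per library (0.754 to 1.46) turned 100% of the products into whole reads within 0.1 read. The deposited signal itself was handled as normalized values and not as counts. The table was multiplied by 92.1 to a mean column total of 1000000 (scaled units), and 11557 rows with a mean of at least 1 were kept. Rows with a shared (393) or joined (333) name were tested but are not named, because near-identical copies can share or split reads. Whether counting used strand is not given in the sources used here.

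All libraries entered 1 model of log2(scaled units + 0.5) fitted in limma 3.58.1 (R 4.3.3) with group means, with empirical Bayes moderation (trend, robust), 20 residual degrees of freedom and two-sided tests. On simulated data 92% of 100 genes with a 1.5-fold and 99% of 100 with a 2-fold interaction were recovered among 11557 genes. Of all calls there, 16 (7.73%) were false. The changed genes had a mean of at least 5 scaled units and changed in WT agonist libraries only. No other gene was given an agonist effect and library totals were not shifted, so these rates need not hold for the real data. No libraries within a group were near-identical (chi-square per degree of freedom at least 4.19). The alternatives were other pseudocounts, filters and scalings, other moderation, a replicate block, voom on recovered reads, and leaving out libraries. Count models on recovered reads other than voom were not run.

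The members and gene lists were chosen with earlier results of these data known. Named genes were Gpr39, Aqp2, the 12 highest and 12 lowest interactions without overlap between the WT groups, the strongest members of each class, and the 4 called members at most of every list that had the smallest adjusted p, with a mean of at least 5 scaled units for those ranked over all genes. Members of the receptor, principal cell and zinc lists could be named whatever their call. Many of the genes so taken are left undiscussed, in part because their class changed when 1 library was left out. They include the strongest shared genes that rose, so the genes described do not stand for their classes. Genes picked otherwise are said to be.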

Additional observations from a re-analysis of the deposited data

Results flagged for a closer look

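The agonist effect differed between WT and KO cells for 2481 genes with a higher and 2265 genes with a lower interaction, by limma's test of the difference itself. Among the genes named, 7 had called effects of opposite sign in the genotypes. The interactions were 2.67 for Ppp1r15a, 2.28 for Csf1, 1.54 for Herpud1, 1.23 for Atf4 and 0.80 for Ciart, which rose in WT cells and fell in KO cells, and −0.73 for Cpt1a and −0.55 for Rnf169, which did the reverse.

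Of 308 sets of 6 libraries, 4 for each of 77 named genes, 14 (4.55%) held a library far from the other 5 by Dixon's ratio of gap to range, and chance flags about 1 in 20. KO_vehicle 6 held 8 of these values. In that library Gnaq stood at 85.4 scaled units, Rock1 at 47.4, Ackr3 at 61.4, Tsc22d3 at 83.3 and Cav1 at 119, each the highest of its group, and Avpr2 at 79.6, Gna11 at 106.9 and Vcl at 34.6, each the lowest. The other 6 were Gna11 in KO_agonist 1 (129), Pde4b in KO_agonist 3 (3.61), Ciart in KO_agonist 5 (14.5), Zc3h12a in KO_vehicle 4 (9.37), Tpm2 in WT_agonist 3 (26.5) and Cd68 in WT_agonist 4 (33.5).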

How the results depend on the processing

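For named genes other than Gpr39 and Aqp2, 825 single-gene interactions were recomputed, and 820 stayed called in the same direction or stayed uncalled. These used other pseudocounts, filters, scalings and models, or left out KO_vehicle 6 and KO_agonist 2 together, and left out no single library. Of 77 named genes 56 kept their class under all 35 alternatives, which do leave out single libraries. That share was raised by leaving less stable genes undescribed. Setting library totals equal gave 1130 genes called higher, 6415 lower, 535 at least 1.5-fold higher, 1702 at least 1.5-fold lower, 6508 receptor-dependent, 180 shared and 252 KO-larger. It gave Gpr39 an interaction of 0.16 (adjusted p = 0.0923), and with this scaling Scnn1a turned to −0.26, and to −0.30 with quantile scaling. A pseudocount of 2 left 285 genes at least 1.5-fold lower. Without KO_vehicle 6 and KO_agonist 2 there were 317 reduced, 442 opposite, 1019 shared and 383 KO-larger genes. Leaving out 1 library at a time gave 2355 to 2770 genes higher, 2097 to 2587 lower, 864 to 938 and 462 to 537 beyond 1.5-fold, 3696 to 4483 receptor-dependent, 17 to 184 reduced, 43 to 288 opposite, 114 to 673 shared and 44 to 260 KO-larger, with interactions of 0.39 to 0.46 for Gpr39 and −0.25 to −0.04 for Aqp2. The number of genes called in KO cells ran from 284 without KO_agonist 1 to 1851 without KO_agonist 2, and the cause of these shifts was not tested. Replicate numbers did not pair the libraries (same-numbered correlations from −0.279 to 0.488), and with a replicate block 4732 genes were called, 4621 of them among the 4746. Depth was not varied, and at 6 libraries per group the simulated 1.5-fold differences were recovered less often than the 2-fold ones.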
